A study of Mus musculus with 7 samples.

Results

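Peaks of the insulator protein CTCF and of its germline paralogue CTCFL were examined at 8 mouse windows that carry the names of 9 imprinted genes: H19 and Igf2, Kcnq1ot1, Peg3, Meg3, Gnas, Igf2r, Grb10 and Mest. The members were all peaks that touched one of these windows, which together span 750 kb of the mm9 genome, and no measured value entered that rule. They numbered 72 of the 100560 peaks in the 4 deposited lists: 38 from CTCF in 3T3, 14 from CTCFL in 3T3, 17 from CTCF in P19 and 3 from CTCFL in P19. Chromatin immunoprecipitation and sequencing had been done with antibody N2.2 against CTCF and antibody S6 against CTCFL in NIH3T3 mouse fibroblasts and in p19 mouse embryonic carcinoma cells. All 4 cultures carried the stable integrates pBI-EGFP-FLAG-mCtcfl and pTA-N, by which tagged mouse Ctcfl is made on induction. Their treatment label gives 2 µg/ml doxycycline in the medium and induction by 48 h without it, and does not say in which state each culture was harvested. The P19 titles call those cells control, so whether CTCFL had been induced in them is unsettled. Of the 7 samples in the series, 3 were not analysed here: P19 input DNA, and both factors in 3T3 lacking the integrates. Neither CTCFL list could therefore be set against cells without the integrate.

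An imprinted gene is expressed mainly from the chromosome of one parent. Each imprinted domain is governed by a control region that is methylated in the germline of one parent, the father for H19 and Igf2 and for Meg3, the mother for Kcnq1ot1, Peg3, Gnas, Igf2r, Grb10 and Mest. CTCF binds DNA with zinc fingers, and at some of its sites methylation prevents binding. The textbook case lies upstream of H19, where CTCF on the unmethylated maternal chromosome insulates Igf2 from enhancers that both genes share. CTCFL, also called BORIS, has closely similar zinc fingers and is normally made in male germ cells. The peak lists do not separate the parental chromosomes, so each peak stands for both alleles together.

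Each group had 1 library, so no difference between lists has a replicate check, no p-value is given, and intervals are exact (Clopper-Pearson) 95% intervals that cover counting error alone. How deeply the libraries were sequenced is not stated in the labels or lists. The score of a peak is the authors' value, read as −10 times the log10 of the peak caller's p-value, and it ranks peaks only within a list. All scores were at least 50. Scores had medians of 104 in 3T3 CTCF, 83.7 in 3T3 CTCFL, 117 in P19 CTCF and 75.1 in P19 CTCFL. The lists differed in length, with 45653, 16764, 32277 and 5866 peaks in the same order, and median peak widths were 342, 283, 636 and 581 bp. Counts are therefore set beside the share of all stretches of the same length, laid end to end along every chromosome, that held a peak of that list. Those stretches include parts of chromosomes to which few reads can be assigned. No peak was placed on a gene, promoter or control region, because the gene table used here is of build GRCm38.p6. The H19-Igf2 and Kcnq1ot1 windows lie beyond the last gene that table has on chromosome 7, so its coordinates could not be carried over. That the windows hold the genes they are named for was likewise not checked.

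Binding was uneven across the 8 windows. CTCF had a peak in 8 of 8 windows in 3T3 and in 7 of 8 in P19, where Kcnq1ot1 had none. CTCFL had a peak in 6 of 8 windows in 3T3, all but Kcnq1ot1 and Grb10, and in 3 of 8 in P19, namely H19-Igf2, Meg3 and Mest. Gnas held the most peaks, 20 over the 4 lists, followed by H19-Igf2 with 15, Meg3 and Igf2r with 9 each, Peg3 with 8, Grb10 and Mest with 5 each and Kcnq1ot1 with 1. Per 100 kb the windows held 5.07 CTCF and 1.87 CTCFL peaks in 3T3, against 1.73 and 0.636 over the whole genome. In P19 they held 2.27 and 0.400, against 1.22 and 0.222. The windows were thus denser in peaks than the genome by factors of 2.93, 2.94, 1.85 and 1.80. Without Gnas the factors were 2.22, 2.18, 1.89 and 2.07. The windows were picked around genes, and whether other stretches with genes are as dense was not tested.

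**Figure D1:**
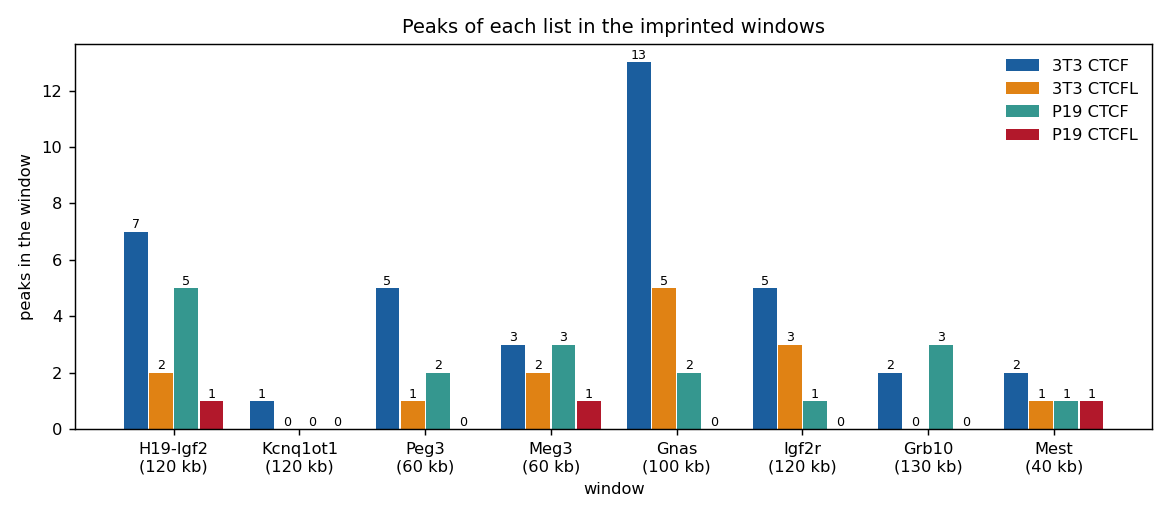
Number of peaks (y axis) of each list, shown by colour, in each of the 8 windows (x axis, with window length in kb); each list is 1 library. Gnas stands out with 13 CTCF and 5 CTCFL peaks in 3T3, beside 2 and 0 in P19.

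The H19-Igf2 window (chromosome 7, 149750000 to 149870000) carried CTCF in both lines and CTCFL in both lines, but the factors met at the same place only in P19. In 3T3, 0 of 2 CTCFL peaks overlapped CTCF, against 61.3% of the whole list, and in P19 1 of 1 did, against 67.6%. Igf2 encodes a fetal growth factor and H19 a long noncoding RNA, and in the RefSeq gene order H19 comes before Igf2 and Ins2. In 3T3 there were 7 CTCF peaks, and 53.6% of all 120 kb stretches had at least 1 and 8.97% had 7 or more. In P19 there were 5, and 55.3% of stretches had at least 1 and 8.67% had 5 or more. The CTCF peaks of the lines overlapped at 2 places. These were 2 of 7 peaks in 3T3, against 41.7% of the whole list, and 2 of 5 in P19, against 57.2%. At 149796456 to 149796923 the CTCF scores were 170 in 3T3 and 140 in P19, the former being the highest in this window for 3T3 CTCF and the latter the highest for P19 CTCF. At 149857809 to 149858540 they were 77.1 and 139. These 2 places were thus bound by CTCF in both lines and lacked a CTCFL peak in either.

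Other sites in this window belonged to 1 line. CTCF peaks of P19 alone lay at 149765909 to 149766967 (score 107) and at 149861361 to 149862096 (score 76.3). The former was the widest P19 CTCF peak of all 8 windows, at 1059 bp, and the nearest 3T3 peak of either factor lay 14.8 kb away. The site of both factors in P19 lay at 149845083 to 149845803. There the CTCF score was 137 and the CTCFL score 147, and 88.3% of the P19 CTCFL list scored lower than the latter. In 3T3 that place had no peak, although peaks lay on both sides of it. A 3T3 CTCFL peak (149844112 to 149844584, score 68.8) ended 498 bp before it, and a second lay at 149842231 to 149842532 (score 60.5). A 3T3 CTCF peak (149846007 to 149846177, score 61.1) began 203 bp after it. These 3 flanking 3T3 peaks ranked low, with 33.3%, 18.6% and 14.8% of their own lists below them. For CTCFL, 32.2% of 120 kb stretches had a peak in 3T3 and 18.1% in P19. The remaining 3T3 CTCF peaks, at 52.8, 59.1, 95.1 and 104, had no partner in another list.

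The Meg3 window (chromosome 12, 110760000 to 110820000) held the highest scores of all the windows for 3T3 CTCF and for P19 CTCFL, though not for P19 CTCF. Meg3 is a maternally expressed long noncoding RNA, and in the gene order it is followed by Rtl1, a paternally expressed gene derived from a retrotransposon. CTCF had 3 peaks in each line, and the 3 of 3T3 overlapped the 3 of P19 pair by pair. Over the whole lists, 41.7% of 3T3 and 57.2% of P19 CTCF peaks overlapped CTCF of the other line. At least 1 CTCF peak was present in 40.2% of all 60 kb stretches in 3T3 and in 39.5% in P19, and 14.3% and 8.94% held 3 or more. At 110780925 to 110781427 the score was 1298 for 3T3 CTCF, 203 for P19 CTCF and 227 for P19 CTCFL. These values exceeded 94.8%, 77.3% and 96.1% of their own lists. Just before it, at 110780125 to 110780652, the CTCF peak scored 725 in 3T3, above 91.2% of that list, and 55.1 in P19, above only 6.12%. The third shared site, 110804820 to 110805212, was weak in both lines, at 76.4 and 53.3.

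CTCFL took different places in the 2 lines at Meg3, the more common state in both lists. Genome-wide, 13.3% of 3T3 CTCFL peaks and 35.7% of P19 CTCFL peaks overlapped CTCFL of the other line. The P19 CTCFL peak lay on the highest scoring CTCF site of this window in both lines, where 3T3 CTCFL had no peak. The 2 peaks of 3T3 CTCFL lay instead at 110766472 to 110766699 (score 68.6) and at 110787869 to 110788212 (score 56.8), with no CTCF peak of either line touching them. Of the whole 3T3 CTCFL list, 61.3% overlapped CTCF of 3T3 and 17.1% overlapped CTCF of P19. Both 3T3 CTCFL peaks at Meg3 ranked below the middle of their list, above 33.0% and 10.8% of it. At least 1 CTCFL peak was present in 21.3% of 60 kb stretches in 3T3 and in 10.6% in P19.

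The Gnas window (chromosome 2, 174090000 to 174190000) held the most peaks per kb in 3T3 and, in the lists as deposited, had the widest gap in counts between the lines. Gnas encodes the stimulatory G protein alpha subunit and gives several imprinted transcripts from alternative promoters, and an antisense transcript is listed beside it. The 13 CTCF peaks of 3T3 compare with 1.32% of 100 kb stretches holding as many or more, and the 5 CTCFL peaks with 2.69%. At least 1 such peak was present in 50% and 29.1% of stretches. P19 had 2 CTCF peaks, a number reached or passed by 30.3% of stretches, and no CTCFL peak, whereas 15.9% of stretches had one. The nearest P19 CTCFL peak lay 308 kb after the window. The CTCF counts of both lines fell when weaker peaks were left out, and their difference shrank with them. At a score of at least 100 there were 8 CTCF peaks in 3T3 and 1 in P19. Scores rank only within a list, and this limit kept 24157 of 45653 CTCF peaks in 3T3 and 19054 of 32277 in P19. Among the top 5866 peaks by score of each list there were 1 and 0, a smaller gap than the 2 and 0 at Meg3. For CTCFL both limits left 3 peaks in 3T3 and 0 in P19. Both P19 CTCF peaks coincided with CTCF in 3T3, as did 57.2% of the whole P19 CTCF list. The 2 shared sites lay at 174136302 to 174136760 (291 in 3T3, 86.9 in P19) and at 174137499 to 174138143 (91.3 and 134). The order of the pair was opposite in the 2 lists.

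A pair of groups of closely spaced peaks made up most of the Gnas binding in 3T3. The second held 6 peaks in 2.76 kb, from 174153924 to 174156685. In it CTCF scored 104, 392, 425 and 103 in order of position, with gaps of 75, 82 and 51 bp between peaks, and CTCFL scored 328 and 451 on the middle pair. These CTCFL peaks ranked above 91.7% and 94.6% of their list and were the highest CTCFL peaks of all windows in 3T3. P19 had no peak of either factor there. Whether peaks so close together are separate sites was not tested, and with edges joined up to 500 bp apart the 49 merged regions of the windows became 38. The first group held 7 peaks in 7.79 kb, from 174120674 to 174128463. Its strongest CTCF peak, 174122745 to 174123026, scored 555 and had no CTCFL. The neighbour at 174123389 to 174123661 had both factors at low scores (74.5 and 63.0), and 174125266 to 174125585 had CTCFL alone (84.3). A further site of both factors in 3T3, 174110432 to 174111055, scored 150 for CTCF and 123 for CTCFL.

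The Mest window (chromosome 6, 30670000 to 30710000) had both factors in both lines within 1.65 kb, on 2 neighbouring places. Mest is a paternally expressed gene for a hydrolase-like protein, and Copg2 follows it in the gene order. At 30686755 to 30687521 the P19 CTCF peak scored 112 and the P19 CTCFL peak 89.7, and a narrow 3T3 CTCF peak of 180 bp scored 61.1. That 3T3 peak shared 48 bp with the P19 CTCFL peak. At 30687894 to 30688407, which begins 372 bp later, 3T3 had CTCF at 149 and CTCFL at 89.7, and P19 had no peak. CTCFL thus lay on a different CTCF peak in each line, and the CTCFL peaks of the lines were 724 bp apart. Over the whole lists, 13.3% of 3T3 and 35.7% of P19 CTCFL peaks overlapped CTCFL of the other line. A 40 kb stretch held at least 1 peak in 32.7% of cases for 3T3 CTCF, 16.1% for 3T3 CTCFL, 30.9% for P19 CTCF and 7.55% for P19 CTCFL.

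**Figure D2:**
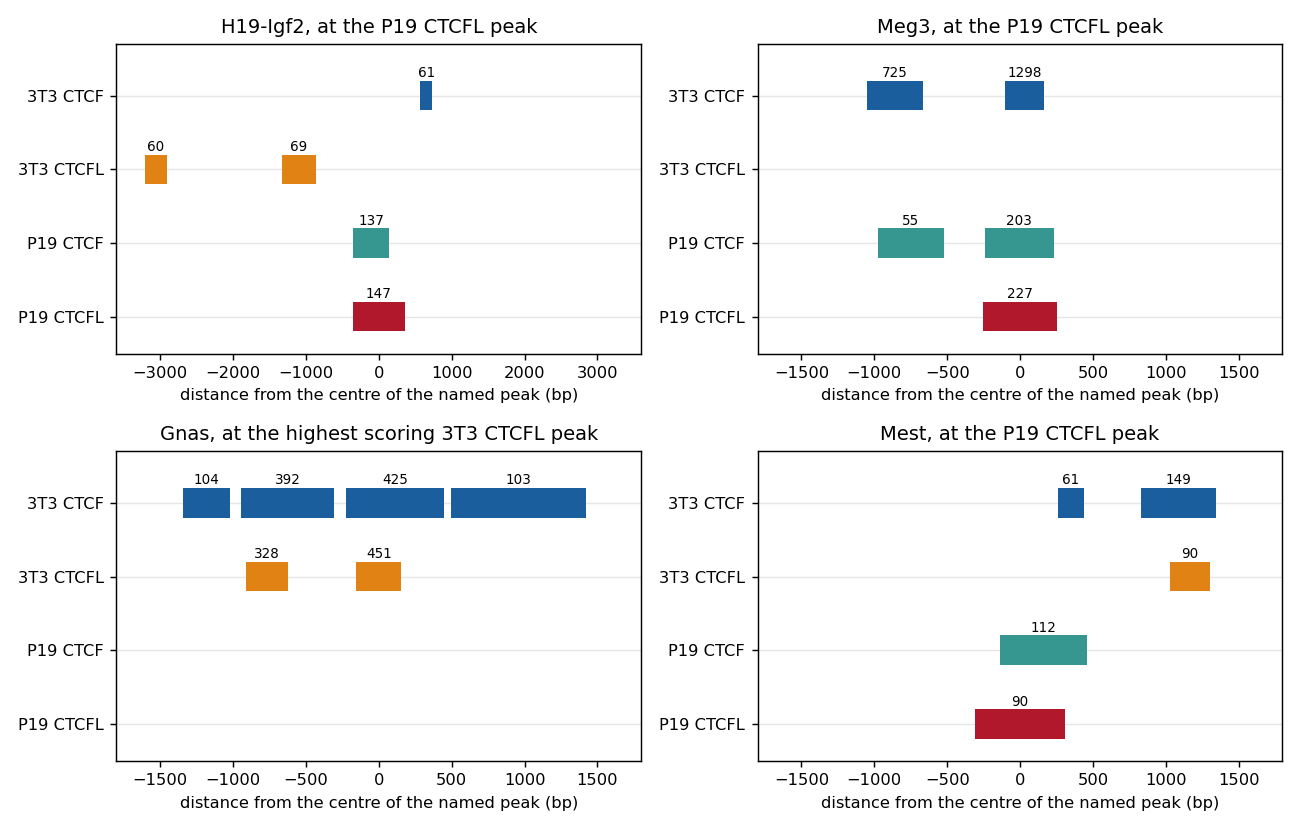
Peaks of the 4 lists (rows) drawn to scale by distance in bp from the centre of the peak named above each panel, with the score, which ranks within a list only, above each bar. CTCFL of 3T3 (orange) and of P19 (red) did not overlap at H19-Igf2, Meg3 and Mest, and at the Gnas site P19 had no peak. Their nearest peaks were 498 bp apart at H19-Igf2, 724 bp at Mest and 6.44 kb, beyond the panel, at Meg3. Over the whole lists, 13.3% of 3T3 and 35.7% of P19 CTCFL peaks overlapped CTCFL of the other line.

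The Igf2r window (chromosome 17, 12860000 to 12980000) held 8 peaks of 3T3 and 1 of P19, on both sides of 78.9 kb without a peak. Igf2r encodes a receptor that clears Igf2 and is maternally expressed, and Airn, the noncoding RNA that silences it in cis, follows it in the gene order. There were 5 CTCF peaks and 3 CTCFL peaks in 3T3, numbers reached by 15.5% and 10.1% of 120 kb stretches. P19 had 1 CTCF peak, and 55.3% of stretches had at least 1. It had no CTCFL peak, as was the more common state, since 18.1% of stretches had one. The main site, 12961901 to 12963162, had the highest CTCF score of the window in 3T3, 237, and 2 CTCFL peaks (87.3 and 50.5). P19 had no peak there. At the other place, CTCF peaks of 3T3 lay at 12880495 to 12880716 (79.6) and at 12880762 to 12881144 (120). The latter shared 77 bp with a CTCFL peak of score 50.8. The P19 CTCF peak, 12882275 to 12882754 (84.8), ended 10 bp before a 3T3 CTCF peak, 12882765 to 12883031 (76.7). By the rule of 1 shared base these count as separate sites, so the absence of shared CTCF in this window rests on 10 bp. The fifth 3T3 CTCF peak, 12973118 to 12973302, scored 74.5. No P19 CTCFL peak lay nearer than 295 kb before the window.

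The Peg3 window (chromosome 7, 6640000 to 6700000) shared its 2 P19 CTCF peaks with 3T3. Of the whole P19 CTCF list, 57.2% overlapped CTCF of 3T3. Peg3 is a paternally expressed zinc-finger gene, and Zim1 and Usp29 are among its neighbours. At 6679793 to 6680572 CTCF scored 497 in 3T3, above 87.8% of that list, and 114 in P19, above 48.1%. At 6641302 to 6641977 it scored 86.9 in 3T3, above 38.9%, and 302 in P19, above 91.2% and the highest CTCF score of P19 in the 8 windows. The strongest site thus differed between the lines. CTCFL had 1 peak, in 3T3, at 6682758 to 6683317, on a CTCF peak of 117 and with a CTCFL score of 79.6. The other 3T3 CTCF peaks were weak, at 56.8 and 54.0. Of 60 kb stretches, 5.81% held 5 or more 3T3 CTCF peaks, the number found here, and 18.6% held 2 or more P19 CTCF peaks. At least 1 CTCFL peak was present in 21.3% of these stretches in 3T3 and in 10.6% in P19.

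The Grb10 window (chromosome 11, 11820000 to 11950000) had CTCF in both lines and no CTCFL. Grb10 encodes an adaptor that dampens insulin and growth factor receptor signalling. The shared site, 11873169 to 11873885, scored 463 in 3T3 and 236 in P19, above 87.1% and 83.5% of the lists. A 3T3 CTCF peak of 1147 bp, the widest of that list in the windows, lay at 11936702 to 11937848 (243). The P19 CTCF peak nearest to it, 11938945 to 11939569 (62.4), began 1096 bp after its end. The third P19 peak was 11925477 to 11926198 (142). CTCFL had at least 1 peak in 33.6% of 130 kb stretches in 3T3 and in 19.4% in P19, so its absence here was the more common state in both lists. The nearest CTCFL peaks lay 111 kb before the window in 3T3 and 75.4 kb before it in P19. CTCF had at least 1 peak in 55.1% of these stretches in 3T3 and in 57.1% in P19.

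The Kcnq1ot1 window (chromosome 7, 150380000 to 150500000) held 1 peak, a count that, as at some other windows, depended on the window's edges. Kcnq1ot1 is a paternally expressed noncoding RNA that silences neighbouring genes in cis, and Cdkn1c, a growth inhibitor, is among the genes that follow it. The 1 peak was CTCF in 3T3 at 150383886 to 150384108, with a score of 70.9 that exceeded 25.5% of the list. Outside the window the nearest peaks of the other lists were 3T3 CTCFL 11.0 kb after it, P19 CTCF 24.5 kb before it and P19 CTCFL 62.6 kb after it. With the window widened by 50 kb on both sides, CTCF had 5 peaks in 3T3 and 4 in P19, and CTCFL had 3 in 3T3 and 0 in P19. At least 1 peak was present in 53.6% of stretches of this length for 3T3 CTCF and in 55.3% for P19 CTCF, so many other stretches had none.

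**Figure D3:**
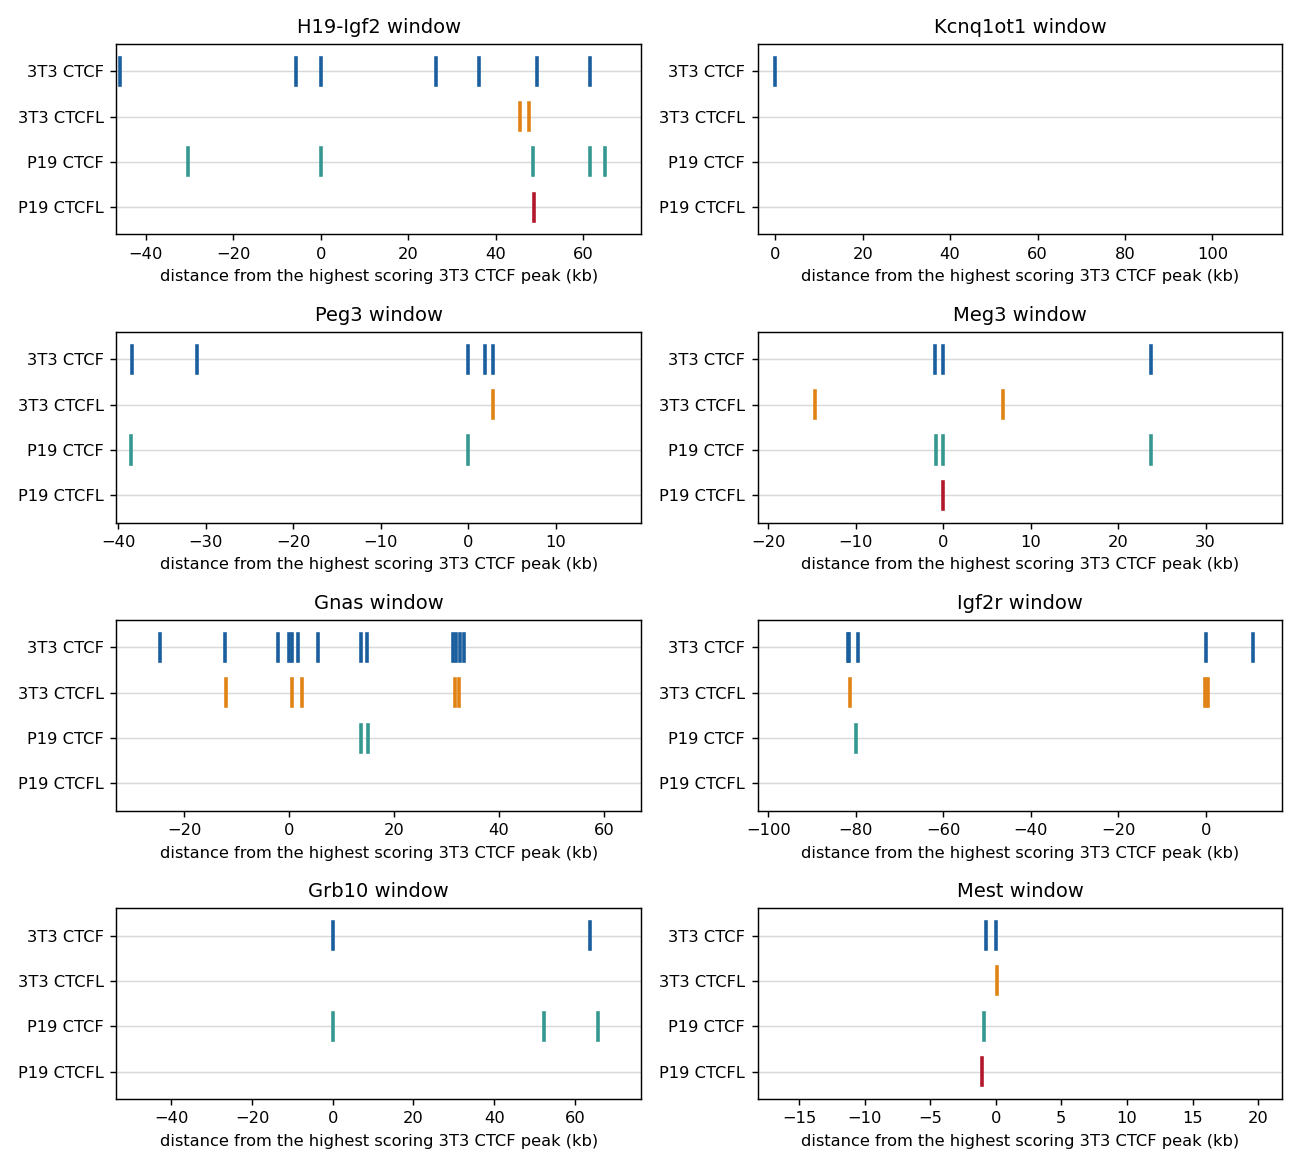
Position of every peak centre (vertical marks) in each window by distance in kb from the highest scoring 3T3 CTCF peak, with 1 row for each list and the window's ends as limits of the x axis. At Meg3 the 3 CTCF marks of each line align. At Peg3 2 of 5 and at Gnas 2 of 13 CTCF peaks of 3T3 overlapped one of P19, against 41.7% of the whole 3T3 CTCF list.

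Across the windows, CTCFL lay on CTCF about as often as elsewhere. In 3T3, 9 of 14 CTCFL peaks overlapped a CTCF peak, 64.3% (35.1 to 87.2), against 61.3% of the whole list. The 5 without CTCF were 2 at H19-Igf2, 2 at Meg3 and 1 at Gnas. In P19, 3 of 3 overlapped, 100% (29.2 to 100), against 67.6%. From the CTCF side, 8 of 38 CTCF peaks of 3T3 had CTCFL, 21.1% (9.55 to 37.3), against 21.2% of the list, and 3 of 17 of P19 had it, 17.6% (3.80 to 43.4), against 12.3%. In 3T3, 4 of these 8 were at Gnas, 2 at Igf2r and 1 each at Peg3 and Mest.

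Between the lines, CTCF sites recurred in part and CTCFL sites inside the windows did not coincide. Of the P19 CTCF peaks, 11 of 17 overlapped CTCF in 3T3, 64.7% (38.3 to 85.8), against 57.2% of the list. Of the 3T3 CTCF peaks, 11 of 38 overlapped CTCF in P19, 28.9% (15.4 to 45.9), against 41.7%. None of the 14 CTCFL peaks of 3T3 overlapped CTCFL of P19, 0% (0 to 23.2), against 13.3%, and conversely 0 of 3 did, 0% (0 to 70.8), against 35.7%. The 14 did not overlap P19 CTCF either, against 17.1% of their list, whereas 2 of the 3 P19 CTCFL peaks, at Meg3 and Mest, overlapped 3T3 CTCF, 66.7% (9.43 to 99.2), against 67.5%. The whole-list share lay inside the interval in each of these 10 overlap comparisons, so with so few peaks the windows were not distinguishable from their lists. With windows widened by 50 kb on both sides, 1 of 24 CTCFL peaks of 3T3 overlapped CTCFL of P19, and conversely 1 of 4 did. This place lay before the H19-Igf2 window, at 149723811 to 149724275 in 3T3 (score 71.9) and 149723582 to 149724475 in P19 (69.6).

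Merging all peaks that touched gave 49 regions in the windows. CTCF of 3T3 alone made up 19 of these, 38.8%, against 29.5% of the 65700 regions genome-wide. CTCF of both lines without CTCFL made up 9, 18.4% against 21.3%, and both factors of 3T3 without P19 made up 8, 16.3% against 9.11%. CTCF of P19 alone and CTCFL of 3T3 alone made up 5 each, 10.2%, against 19.6% and 9.56%. CTCF of both lines with CTCFL of P19 made up 2, at Meg3 and Mest, 4.08% against 2.61%, and both factors of P19 alone made up 1, at H19-Igf2, 2.04% against 1.29%. For each of these classes the interval of the windows held the genome-wide share. It was 25.2 to 53.8 for CTCF of 3T3 alone, 7.32 to 29.7 for both factors of 3T3 and 3.40 to 22.2 for CTCF of P19 alone. No region had peaks of all 4 lists, against 2.06% genome-wide, and the interval of the windows reached 7.25%. This absence depended on the rule of 1 shared bp. At H19-Igf2 peaks of all 4 lists lay in neighbouring regions with gaps of 498 and 203 bp, and at Mest with a gap of 372 bp. With edges joined up to 500 bp apart, each of these places would be a region of all 4 lists. The genome-wide share under that rule was not computed. Regions with 3T3 peaks only were 32 of 49, 65.3% (50.4 to 78.3), against 48.1% genome-wide. Of these, 12 were at Gnas, and without that window the share was 57.1% (39.4 to 73.7), an interval that holds the genome-wide value. Regions with P19 peaks only were 6 of 49, 12.2% (4.63 to 24.8), against 22.3%, with 3 at H19-Igf2, 2 at Grb10 and 1 at Igf2r. Regions of both lines were 11 of 49, 22.4% (11.8 to 36.6), against 29.6%, with 3 at Meg3, 2 each at H19-Igf2, Peg3 and Gnas, and 1 each at Grb10 and Mest.

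**Figure D4:**
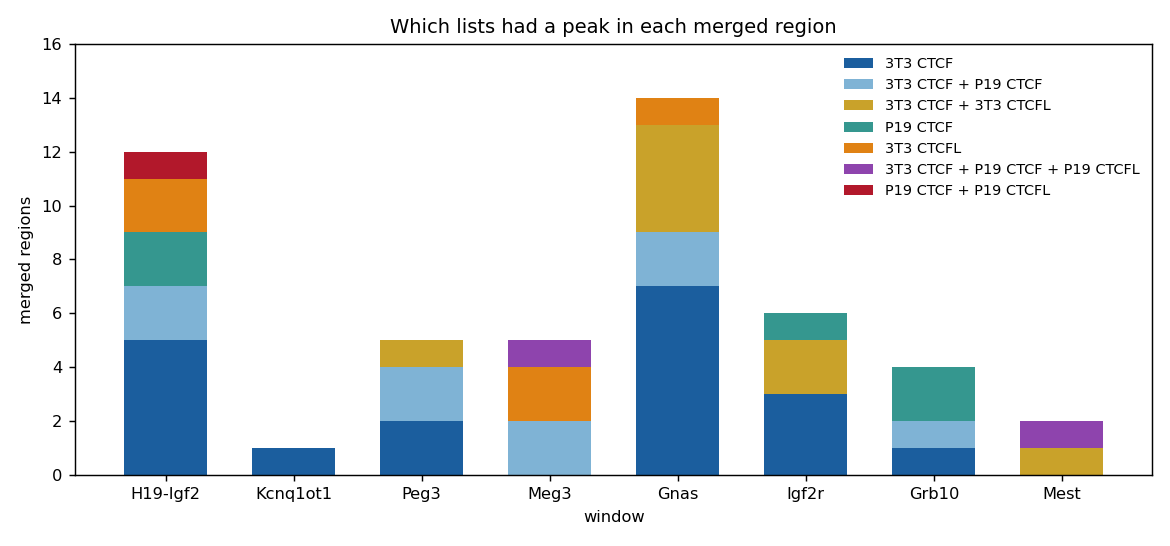
Merged regions in each window (y axis, number; x axis, window), coloured by the set of lists with a peak in the region. H19-Igf2 shows 5 kinds of region. Of the 3T3 CTCFL peaks, 0 of 2 at H19-Igf2 and 4 of 5 at Gnas overlapped CTCF of 3T3, against 61.3% of the whole list.

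The scores in the windows spread over nearly the whole range of ranks. For 3T3 CTCF they ran from 50.5 at Gnas to 1298 at Meg3 with a median of 99.1, against 104 for the list, and 16 of 38 were above the list median. For 3T3 CTCFL the median was 74.2 against 83.7, and 6 of 14 were above. For P19 CTCF it was 114 against 117, and 8 of 17 were above. All 3 P19 CTCFL peaks were above their list's median of 75.1, at 89.7 (Mest), 147 (H19-Igf2) and 227 (Meg3). Widths were also near those of the lists, with medians of 370, 293, 602 and 613 bp in the order 3T3 CTCF, 3T3 CTCFL, P19 CTCF and P19 CTCFL. The CTCF peaks at H19-Igf2 thus ranked in the middle or lower part of their lists, up to 67.8% in 3T3 and 59.7% in P19, while Meg3, Gnas, Peg3 and Grb10 each had a 3T3 CTCF peak above 85% of its list.

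**Figure D5:**
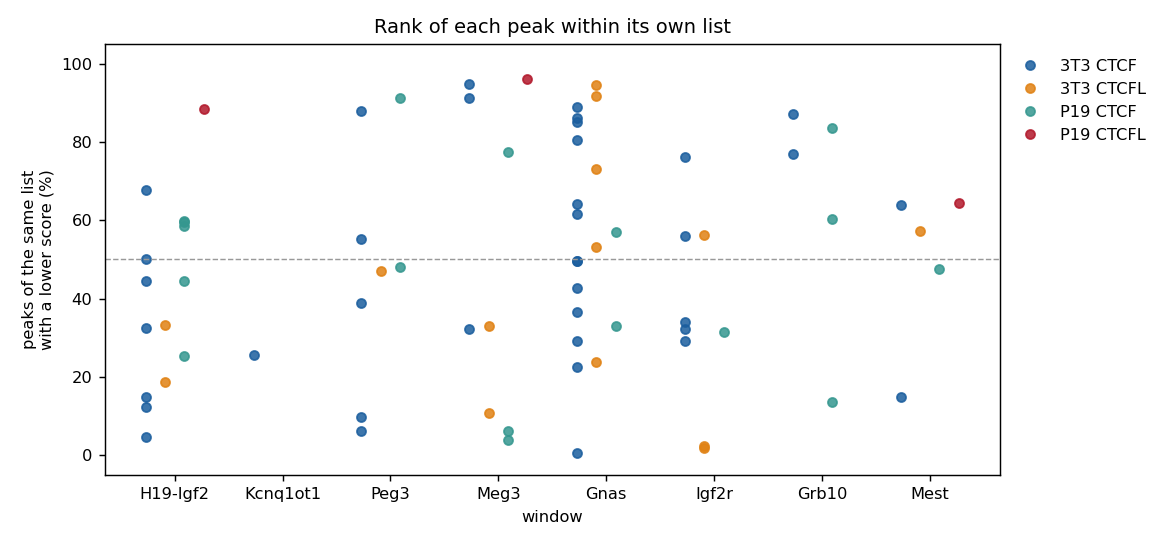
Share (%) of peaks of the same list with a lower score (y axis), for each peak in each window (x axis), coloured by list; the dashed line marks the middle of a list. The P19 CTCFL peaks lie at 88.3, 96.1 and 64.4%, and the CTCF peaks of both lines at H19-Igf2 lie below 70%.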

How the data were processed

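Binding of both factors in both cell lines was analysed from 4 deposited peak lists, 1 per sample. Libraries were made from 10 ng of DNA per the labels' protocols. Per the submitters' processing notes, MACS 1.4, Bowtie, SAMtools and FastQC were used, with mm9 and hg19 as builds, and the role of each is not stated. Aligner settings, pooling and the control library are not given in the labels or lists. The deposited lists give the start, end and score of each peak, and other deposited values are positions. Build mm9 was taken from the notes and the organism: peaks extended past the last gene of the GRCm38.p6 table on 10 of 20 chromosomes, and that table served for gene names and order alone (9 of 9 genes matched).

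Starts were converted to count from 1. Overlap means at least 1 shared bp, and merged regions are unions of touching peaks. Named regions are the highest scoring peak of each list in a window, regions with 3 or 4 lists and regions with CTCFL and no CTCF of the same line; further peaks were named after their values were seen. The members and lists were chosen with earlier results of these data known. Alternatives were other overlap rules, score limits, equal list lengths and wider windows. Python 3.11.15, numpy 2.4.6, SciPy 1.17.1 and matplotlib 3.10.9 were used. Overlap and region counts, compared with bedtools 2.31.1 and tested on simulated data, were equal in 18 of 18 checks.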

Additional observations from a re-analysis of the deposited data

How the results depend on the processing

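No paired analysis was possible because there was 1 library per group, and for the same reason no replicate could be left out. Counts of peaks wholly inside the windows equalled the reported ones, and shares with overlap of 50% of the shorter peak or centres within 200 bp as the criterion stayed within the intervals of the reported ones. Windows widened by 50 kb on both sides held 60, 24 and 32 peaks of 3T3 CTCF, 3T3 CTCFL and P19 CTCF and 83 merged regions. The widened H19-Igf2 window held 15 CTCF peaks in 3T3 and 11 in P19, and 5 and 2 CTCFL peaks. That of Igf2r held 9 CTCF peaks in 3T3. At Gnas, CTCF counts became 14 and 3, and at Grb10 they stayed at 2 and 3. A score of at least 100 left 19, 3 and 11 peaks and 26 regions. The share of 3T3 CTCFL with CTCF was then 100% (3 of 3), of P19 CTCF peaks with 3T3 CTCF 36.4%, and of regions with P19 peaks only 26.9%. With every list cut to 5866 peaks, 4, 3 and 2 peaks and 11 regions were left. The shares of 3T3 CTCF with 3T3 CTCFL or P19 CTCF, of 3T3 CTCFL with CTCF, of P19 CTCF with 3T3 CTCF or P19 CTCFL, and of P19 CTCFL with CTCF all became 0%, regions with P19 peaks only 36.4% and regions of both lines 9.09%. These limits remove weak peaks by construction. Without Gnas, an alternative chosen after seeing the data, 25 peaks of 3T3 CTCF and 9 of 3T3 CTCFL were left. With edges up to 500 bp apart counted as shared, 1 of 3 P19 CTCFL peaks met 3T3 CTCFL, at H19-Igf2. Of values for single windows and region classes, 142 stayed within 1.5 times the reported one and 70 did not. Read depth, which limits which weak peaks were called, is unknown.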
